A study of Mus musculus with 477 samples.

Results

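The genes described here are 49 genes of DNA break repair and of the Fanconi pathway, taken as a fixed list of names and sorted by known role into 8 groups. They are 49 of the 21004 genes in the count table, and all 49 had reads. Single cells of 11 female mice were sequenced on Fluidigm C1 chips, a microfluidic device that captures 1 cell per site and prepares full-length cDNA from it. The series holds 312 mammary luminal cells of 7 mice and 165 cells of 4 mammary tumors. Cells of 1 mouse share their source, so the mouse was the replicate in every test, and most groups held 1 mouse.

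Mice were on a mixed C57BL/6 and 129/Sv background and carried MMTV-Cre, in which the mouse mammary tumor virus promoter drives Cre recombinase mainly in mammary epithelium. Br stands for Brca1 fl/fl, 53 for Trp53 fl/+ and Br53 for both. The sources differ on Trp53: the methods give fl/+, used here, while a supplementary legend on luminal mice writes fl/fl. The luminal mice also carried the ROSA mT/mG reporter, whose green protein marks cells that had Cre activity. Luminal mice were 3 to 4 months old and virgin (v) or pregnant at day 12.5 (p), which gave vBrL, 2 pBrL mice (pBrL-1 and pBrL-2), vBr53L, pBr53L, v53L and p53L. Luminal cells were sorted as live, CD24 high, CD29 low and green, while tumors of about 1 cm (BrT1, BrT2, Br53T1 and Br53T2) were sorted as live and CD24 positive. The 53 mice had wild type Brca1, and every other mouse was Brca1-deficient. There was no mouse without Cre and no mouse with both genes intact.

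A break through both DNA strands can be mended by homologous recombination, which copies an intact sister DNA and works mainly in S and G2 phase, or by end joining, which ligates the ends and works throughout the cell cycle. BRCA1 with its partner BARD1 promotes resection of the ends, and PALB2 and BRCA2 then act with it in homologous recombination. Fanconi proteins open crosslinked DNA at stalled replication forks, and loss of BRCA1 in mammary epithelium is a known cause of tumors that depend on the remaining repair routes.

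Summed over the cells of a mouse, the libraries held 40338926 (v53L) to 115827852 reads (pBrL-1), and single cells held 170209 to 3550564 reads. v53L stood apart: it had no cell in the cycling class defined below, against 19.4% to 52.6% of cells in the other 6 luminal mice and 13.5% to 65.96% in the tumors. Its summed level of 20 G2/M genes was 13.7 CPM (reads of the genes per 1000000 reads of the mouse), against 588 to 2094 CPM in the other luminal mice. The sum of 6 luminal markers lay between 7240 and 12783 CPM in the luminal mice but between 512 and 5617 CPM in the tumors, and Cdh1 and Krt19 had no read in BrT1. BrT1 held 4955 CPM of fibroblast markers and Br53T2 held 5376 CPM of basal markers, against at most 712 and 421 CPM in any luminal mouse. The part of these cell differences in the results below was not tested except where a value is given. In sums over cells, fewer cells that make a gene and less RNA per cell cannot be told apart.

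Most of these genes were found in a minority of cells. With every cell thinned to 100000 reads, a repair gene was found in 20.0% of cells on average over the 49 genes and 11 mice, and 13 genes were found in under 10% of cells. Rif1, which limits resection, was the most widely found at 59.8% of cells (mean of 11 mice, lowest 40.0%, highest 73.6%), and Rad51c the least at 3.67%. Of the 539 values of a gene in a mouse, 14 rested on 0 reads and in 221 a single cell gave over 50% of the reads. A level in a mouse was therefore often the level of 1 or a few cells.

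Per kilobase of exon, the highest mean level over the 11 mice was that of Parp2, a sensor of single-strand breaks, at 25.6 CPM per kb. Xrcc5 and Xrcc6, both subunits of the Ku ring that caps ends for classical end joining, followed at 17.5 and 15.3 CPM per kb, and H2afx, the histone variant marked at breaks, stood at 14.7 CPM per kb. Rif1 and Lig1 came next at 13.5 and 13.3 CPM per kb. The lowest were Palb2 at 0.339, Fanci at 0.440 and Rad51c at 0.495 CPM per kb. By the roles used here, 2 of the 3 lowest were sorted with recombination and 1 with the Fanconi genes.

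**Figure D1:**
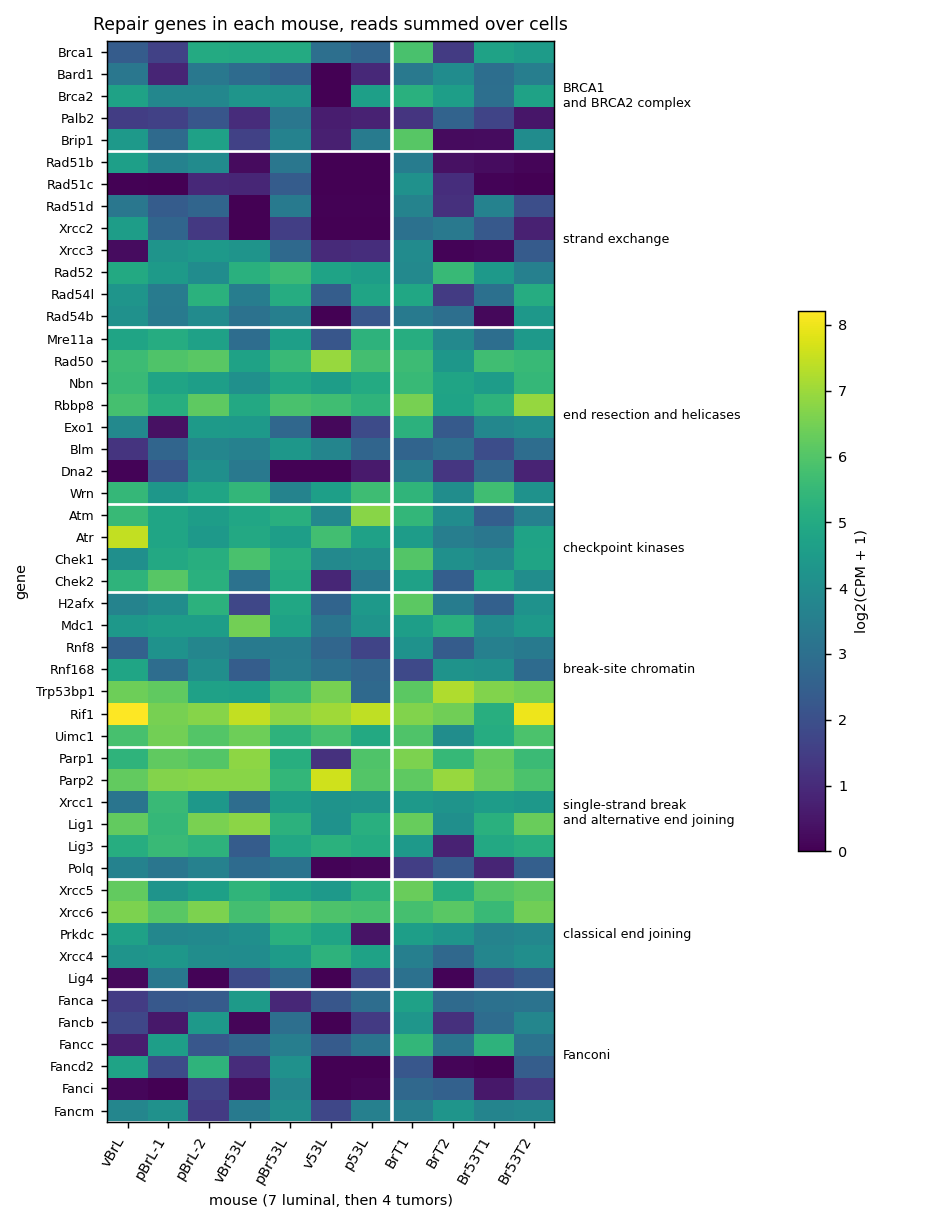
Level of each of the 49 genes (rows, by role) in each of the 11 mice (columns), as log2(CPM + 1) of reads summed over cells. Rif1 and Parp2 are bright in nearly every mouse, while 10 genes have 0 reads in v53L.

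Brca1 itself had reads in every mouse, and the table counts reads of the whole gene, exons outside the deleted part included, so its level does not measure intact transcript. Its level was 4.24, 2.03, 31.8, 29.9 and 31.5 CPM in vBrL, pBrL-1, pBrL-2, vBr53L and pBr53L, against 6.99 and 5.21 CPM in v53L and p53L. The tumors BrT1, BrT2, Br53T1 and Br53T2 held 57.2, 1.70, 25.6 and 21.7 CPM. Brca1-deficient mice thus fell on both sides of the wild type mice, and pBrL-1 and pBrL-2, of 1 genotype and stage, stood at opposite ends of the luminal range. A single cell gave 92.5% of the Brca1 reads of vBrL, 90.5% of those of vBr53L and 99.6% of those of v53L, but 28.1% in BrT1, where 14 of 47 thinned cells held a read. The share of cells with a Brca1 read ran from 1 of 40 cells in v53L (95% exact interval 0.0633% to 13.2%) to 29.8% in BrT1 (17.3% to 44.9%). These intervals cover counting error only.

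The partners of Brca1 were as uneven. Bard1, which forms the ubiquitin ligase with BRCA1, was at 8.58, 0.803, 8.81, 6.28 and 4.91 CPM in vBrL, pBrL-1, pBrL-2, vBr53L and pBr53L, at 0 in v53L and 0.916 CPM in p53L, and at 9.10, 14.99, 6.87 and 10.5 CPM in BrT1, BrT2, Br53T1 and Br53T2. A total of 3 tumors lay above every luminal mouse, and Br53T1 lay below vBrL and pBrL-2. Brca2, which acts in homologous recombination with PALB2, was at 25.4, 12.95, 12.8, 18.6 and 18.1 CPM in vBrL, pBrL-1, pBrL-2, vBr53L and pBr53L, at 0 in v53L and 23.8 in p53L, and at 36.3, 23.2, 6.96 and 25.6 CPM in the 4 tumors in the same order. Palb2, the bridge between BRCA1 and BRCA2, was low throughout, at 1.82, 2.01, 3.54, 1.04 and 8.48 CPM in the deficient luminal mice, 0.595 and 0.742 CPM in v53L and p53L, and 1.42, 5.13, 2.205 and 0.407 CPM in the tumors. Tumors and Brca1-deficient luminal mice overlapped for all 3 genes, while for Palb2 both wild type mice lay below each deficient luminal mouse.

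The clearest contrast lay between cells of the same mouse. A cell was placed in a cycling class when at least 5 of 20 G2/M genes, none of them a repair gene listed here, had a read after thinning, which took 89 of the 312 luminal and 58 of the 165 tumor cells. The class is a range cut from a count, with 21 cells 1 gene short of it and 13 cells exactly at it. It is drawn from G2/M genes only, so cells outside it can be in S phase. Of these 330 cells, 19 had a read of at least 10 of the 20 S phase genes, as had 86 cells of the class. In the 10 mice with at least 5 cells on each side, the summed level of the 49 genes was higher in cycling cells in 10 of 10 mice, by a log2 ratio of 0.79 (vBrL) to 1.46 (vBr53L). In vBr53L, for example, the sum was 2389 CPM in cycling and 868 CPM in other cells, and in Br53T2 it was 2149 and 1146 CPM. No test was made, since the class comes from the same cells.

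Across the 49 genes, the median over genes of the log2 ratio of cycling to other cells (each gene's median of 10 mice, CPM + 1) was 1.18, against 0.00 over the 12908 genes whose mean reached 1 CPM. A set of 8 genes was higher in cycling cells in all 10 mice, against 1.74% of all genes, and 16 genes were higher in at least 9 mice, against 4.04%. The 8 were Bard1, Rad54b, Exo1, Dna2, H2afx, Parp1, Lig1 and Polq. Cycling cells also had more genes of any kind found in them, 4990 to 6887 (medians by mouse) against 4065 to 6341 in other cells of the same mice, from all reads of the cell, and the part of this in the result was not tested.

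The BRCA1 and BRCA2 complex showed the largest contrast of the 8 roles, a median log2 ratio of 2.87, with 4 of 5 genes higher in at least 9 mice. Brca1 averaged 53.7 CPM in cycling cells and 2.00 CPM in other cells over the 10 mice, and was found in 28.2% and 2.98% of those cells. It was higher in cycling cells in 9 of 10 mice, the exception being BrT2, whose 5 cycling cells had 0.366 CPM against 1.87 CPM in the other 32 cells. In BrT1 the level was 88.1 CPM in cycling cells and 0 in the others. Bard1 averaged 28.3 and 0.919 CPM, and even in BrT2 stood at 132 against 0.652 CPM. Brip1, the helicase bound by BRCA1, averaged 32.1 and 4.94 CPM, and Brca2 40.8 and 11.2 CPM, each higher in 9 of 10 mice.

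Among resection factors and helicases, Exo1, the exonuclease of long-range resection, averaged 33.5 CPM in cycling and 1.67 CPM in other cells, and Dna2, which works beside it, 10.3 and 1.62 CPM. Blm, the helicase that unwinds the ends and resolves joined molecules without crossovers, averaged 19.1 and 2.94 CPM and was higher in 9 of 10 mice. Mre11a and Rad50, subunits of the complex that first binds the ends, were also higher in 9 of 10 mice, but Nbn, the third subunit, in 6 of 10. Wrn, a helicase of the same family as Blm, averaged 39.2 and 26.8 CPM and was higher in only 5 of 10.

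In the strand exchange group, Rad54b averaged 30.4 and 1.91 CPM and was higher in all 10 mice, while Rad52, an annealing factor, averaged 23.3 and 24.6 CPM and was higher in 5 of 10. Rad51b, Rad51c, Rad51d and Xrcc2 were found in 4.79% to 14.03% of cycling cells and were higher there in 6 to 8 mice. H2afx, at 52.7 and 4.28 CPM, was found in 61.6% of cycling and 10.95% of other cells, and its lowest log2 ratio in any mouse was 2.00. The other 6 genes of break-site chromatin had median log2 ratios of at most 1.18 (Rif1), and Rnf168, a ubiquitin ligase at breaks, averaged 8.69 and 10.7 CPM.

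Repair of single-strand breaks and alternative end joining held 3 of the 8 genes: Lig1, the replicative ligase (118 and 30.0 CPM), Parp1, the main break sensor (109.8 and 44.02 CPM), and Polq, the polymerase of alternative end joining (15.5 and 1.22 CPM). Lig3, the other ligase of the role, was lower in cycling cells in 7 of 10 mice, although its mean over mice was higher there (37.7 and 25.7 CPM). In the Fanconi group, Fancd2, the protein that is ubiquitinated at crosslinks, averaged 24.3 and 0.355 CPM and was higher in 9 mice and equal in the other one, and Fanca averaged 21.1 and 2.07 CPM. Fancc, a core complex subunit, went the other way in its means, 9.09 and 18.7 CPM, with 5 of 10 mice higher.

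Classical end joining had none of its 5 genes higher in at least 9 mice, and its median log2 ratio was -0.10. Xrcc6 averaged 61.6 CPM in cycling and 71.5 CPM in other cells, Xrcc5 40.5 and 47.3 CPM, and Prkdc, the kinase that Ku recruits, 20.96 and 17.3 CPM, with higher levels in 4, 4 and 5 of 10 mice. Xrcc4 was higher in cycling cells in 7 mice (25.2 and 11.4 CPM), and Lig4, its partner ligase, in 4, although its mean was higher there (7.13 and 1.66 CPM). Checkpoint kinases stood between: Chek1, which restrains the cycle after replication stress, averaged 61.8 and 18.1 CPM and Chek2 48.04 and 17.2 CPM, each higher in 8 of 10 mice, while Atr, the kinase upstream of Chek1, averaged 34.6 and 37.7 CPM.

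**Figure D2:**
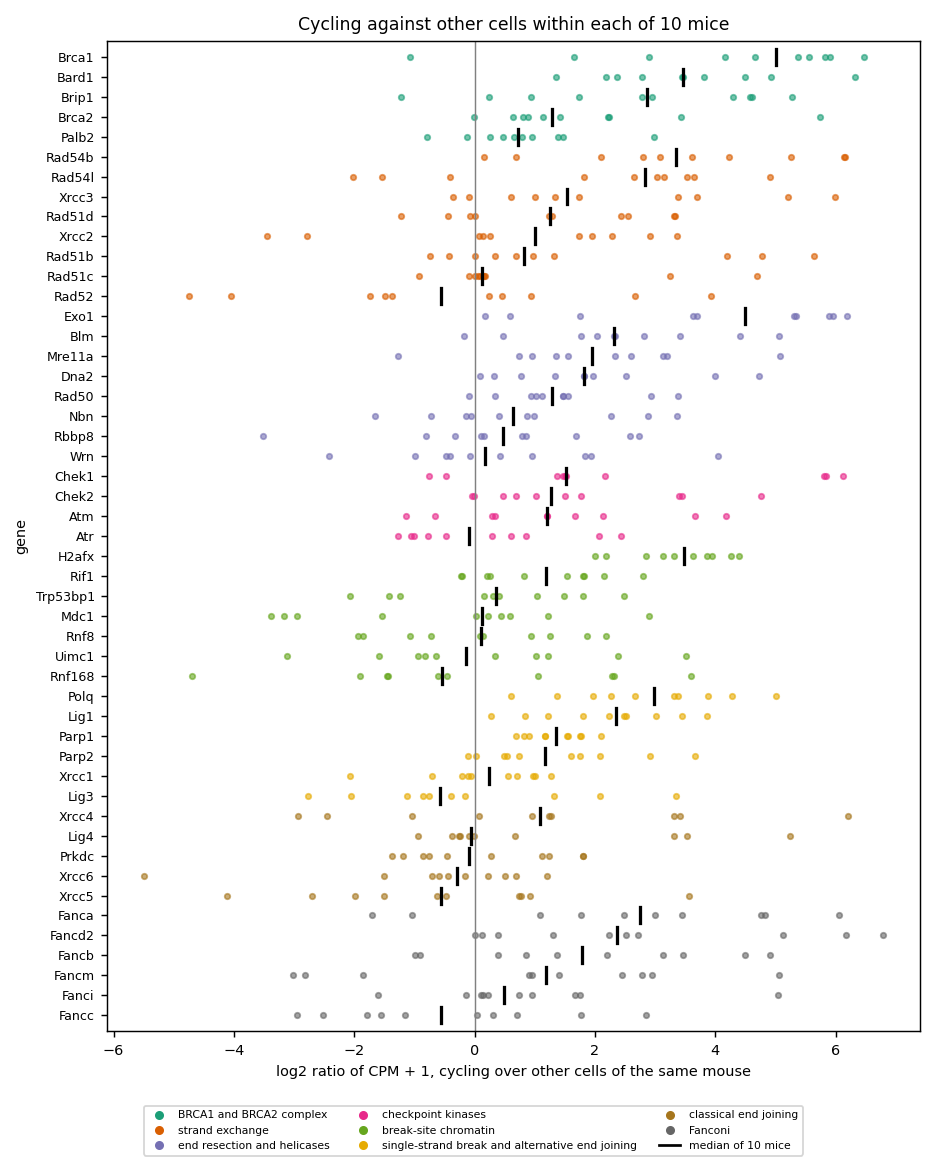
Log2 ratio of CPM + 1 in cycling over other cells of the same mouse, 1 point per mouse for 10 mice, with a bar at the median, by gene and role. All points of Bard1, Exo1, H2afx, Polq, Lig1, Parp1, Dna2 and Rad54b lie right of 0, while those of Xrcc5, Xrcc6 and Rad52 lie on both sides.

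The same contrast appeared per cell. Of the 49 genes, the median cycling cell held a read of 14 (pBrL-1 and p53L) to 19 (Br53T1), and the median other cell of the same 10 mice of 5 (vBr53L and p53L) to 10 (Br53T1), against 4.5 in v53L. The range of single cells was 3 to 31 in the cycling class and 0 to 19 outside it, so the classes overlapped in each of the 10 mice. Within a mouse, the number of repair genes found followed the number of 20 S phase genes found, with Spearman's rho from 0.34 (v53L, 40 cells) to 0.89 (pBrL-2, 38 cells), and the number of all genes found, with rho from 0.60 to 0.82. The first 2 counts share the thinned reads of a cell and the third uses all of its reads, so all share its depth and quality, and they are given as a description.

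**Figure D3:**
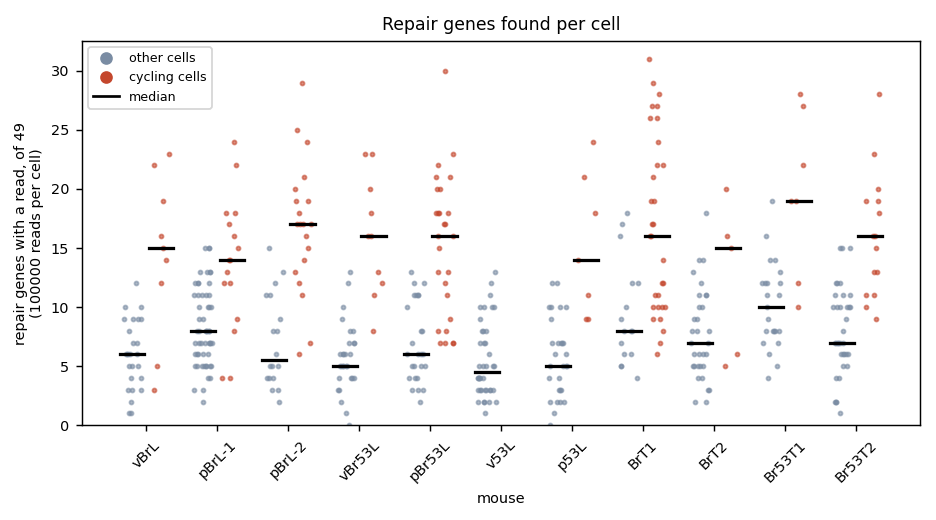
Number of the 49 genes with a read in each cell after thinning to 100000 reads (y axis) by mouse (x axis), cycling cells beside other cells, with a bar at the median. Cycling medians lie at 14 to 19 genes, other medians at 4.5 to 10, and v53L has no cycling cell.

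Promoters of some of these genes are shown because many were higher together in cycling cells, and factors of the E2F family, which switch on S phase genes, bind 8-base words near gene starts. Promoters of 250 bases before to 50 after the start (RefSeq, GRCm38.p6, the assembly also called mm10) were matched for 37 of the 49 genes, 43 promoters in all. None was matched for Exo1, Fancd2, H2afx, Nbn, Prkdc, Rad50, Rad51d, Rad54b, Rbbp8, Rif1, Wrn and Xrcc2. The words TTTCCCGC, TTTCGCGC, TTTGCCGC and TTTGGCGC, on either strand, were found in 8 of the 43 promoters (18.6%), against 2.26% of all 32851 promoters of the same length. By gene they were found for 3 of 11 genes higher in cycling cells in at least 9 mice (Bard1, Brca2 and Lig1) and for 4 of the 26 others (Chek2, Mdc1, Rad51c and Xrcc6). The word CCAAT, searched in the same way, was in 51.2% of the 43 promoters and 37.4% of all promoters. It was in 4 of the 13 promoters of the genes higher in cycling cells (30.8%) and in 18 of the other 30. The sequences below run 5′ to 3′ on the gene's strand, with such a word in capitals. Those of Bard1, Brca2 and Lig1 hold one, that of Xrcc6 holds one although its gene was not higher in cycling cells, and those of Brca1 and Polq hold none although theirs were. Where a gene had several promoters, the one with the most such words was printed, a choice that favors a match. A match is a run of letters, not a measured site.
Bard1 (chr1:71102923-71103222, - strand): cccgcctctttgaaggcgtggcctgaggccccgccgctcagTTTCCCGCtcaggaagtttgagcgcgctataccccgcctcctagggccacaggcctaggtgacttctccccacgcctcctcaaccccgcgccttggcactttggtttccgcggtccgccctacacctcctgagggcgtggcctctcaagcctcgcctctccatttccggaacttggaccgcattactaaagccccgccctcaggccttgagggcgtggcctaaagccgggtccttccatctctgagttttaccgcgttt
Brca2 (chr5:150522371-150522670, + strand): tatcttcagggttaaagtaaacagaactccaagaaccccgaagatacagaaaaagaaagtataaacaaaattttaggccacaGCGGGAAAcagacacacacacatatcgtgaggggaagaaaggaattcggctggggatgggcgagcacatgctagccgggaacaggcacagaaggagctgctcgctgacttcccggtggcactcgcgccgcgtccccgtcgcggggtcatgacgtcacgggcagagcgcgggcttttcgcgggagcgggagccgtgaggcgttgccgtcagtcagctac
Lig1 (chr7:13278576-13278875, + strand): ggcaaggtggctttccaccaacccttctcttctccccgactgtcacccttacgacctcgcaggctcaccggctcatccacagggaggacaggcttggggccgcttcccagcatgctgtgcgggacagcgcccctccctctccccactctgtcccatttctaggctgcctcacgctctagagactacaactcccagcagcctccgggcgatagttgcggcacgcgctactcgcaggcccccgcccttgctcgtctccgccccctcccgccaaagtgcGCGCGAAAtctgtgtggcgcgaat
Xrcc6 (chr15:82016119-82016418, + strand): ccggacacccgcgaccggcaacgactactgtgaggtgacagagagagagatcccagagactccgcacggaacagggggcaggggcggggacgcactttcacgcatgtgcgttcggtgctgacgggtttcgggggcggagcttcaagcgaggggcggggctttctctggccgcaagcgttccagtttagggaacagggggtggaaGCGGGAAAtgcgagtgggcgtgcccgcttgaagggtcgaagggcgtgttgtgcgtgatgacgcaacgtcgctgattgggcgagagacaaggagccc
Brca1 (chr11:101551906-101552205, - strand): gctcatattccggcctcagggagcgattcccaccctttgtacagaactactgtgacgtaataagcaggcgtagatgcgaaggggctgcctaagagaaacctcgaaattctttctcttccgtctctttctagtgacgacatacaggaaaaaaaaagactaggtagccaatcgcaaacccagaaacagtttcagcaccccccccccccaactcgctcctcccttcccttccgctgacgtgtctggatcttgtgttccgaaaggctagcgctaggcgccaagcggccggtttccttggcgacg
Polq (chr16:37011536-37011835, + strand): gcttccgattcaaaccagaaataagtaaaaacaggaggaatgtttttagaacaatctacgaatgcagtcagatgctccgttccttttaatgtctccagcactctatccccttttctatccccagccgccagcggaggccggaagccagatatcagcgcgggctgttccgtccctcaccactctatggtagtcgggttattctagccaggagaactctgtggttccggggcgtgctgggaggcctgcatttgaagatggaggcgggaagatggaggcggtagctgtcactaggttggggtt

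At the level of mice, the summed level of the 49 genes ran from 1079 CPM (v53L) to 1695 CPM (vBrL) in luminal mice and from 961 CPM (BrT2) to 1659 CPM (BrT1) in tumors. The ranges overlapped. By role the order of mice differed: the BRCA1 and BRCA2 complex summed to 8.23 CPM in v53L and 24.03 to 82.2 CPM in the other luminal mice, and to 45.2, 41.9 and 72.9 CPM in BrT2, Br53T1 and Br53T2 against 170 CPM in BrT1. Fanconi genes likewise ran from 9.99 CPM in v53L to 106.6 CPM in BrT1. These 2 mice also had the lowest and highest shares of cycling cells, 0% and 65.96%. Other mice did not all follow that order. For the BRCA1 and BRCA2 complex, pBrL-1 had 24.03 CPM with 22.5% cycling cells, and BrT2 had 45.2 CPM with 13.5%. The library of v53L also held the fewest reads. The part of cycling cells in these sums was not tested. Classical end joining differed far less, from 122 CPM (p53L) to 214 CPM (vBrL), and stood at 144 CPM in v53L.

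**Figure D4:**
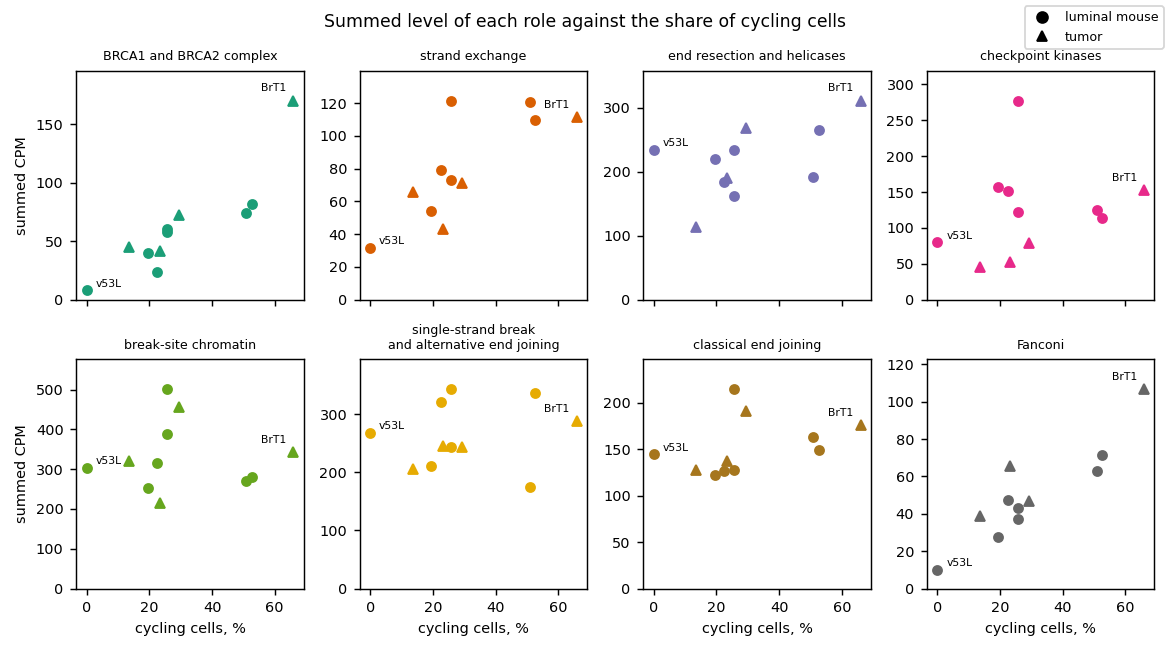
Summed CPM of each role (y axis, from 0) against the percent of cycling cells (x axis) in 7 luminal mice (circles) and 4 tumors (triangles). For the BRCA1 and BRCA2 complex and the Fanconi genes v53L lies lowest and BrT1 highest, while for classical end joining v53L lies within the other mice.

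No repair gene passed the test between tumors and the 5 Brca1-deficient luminal mice, all of which carried the Brca1 deletion. With edgeR's quasi-likelihood test on reads summed per mouse and Benjamini-Hochberg adjustment over 12978 genes, 0 of 49 were called at an adjusted p of 0.05, against 0.609% of all genes. At an unadjusted p under 0.05 there was 1 of 49, against 13.8% of all genes, and DESeq2 called 0 of 49, against 6.23%. The median log2 fold change was -0.37 over the 49 genes and 0.06 over all genes tested, with 33 of 49 below 0. It was -0.23 without Br53T1, -0.21 without Br53T2 and -0.30 to -0.51 without any other tumor, or -0.29 to -0.42 without any 1 luminal mouse. Tumors and luminal cells were sorted by different gates, and only 1 chip held both. The luminal mice were 3 to 4 months old and some were pregnant, while the labels give no age for the tumor mice. Age and tumor cannot be told apart.

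The gene at an unadjusted p under 0.05 was Atr. It was at 176, 27.2, 20.1, 30.0 and 23.6 CPM in vBrL, pBrL-1, pBrL-2, vBr53L and pBr53L, and at 22.2, 10.5, 8.53 and 26.2 CPM in BrT1, BrT2, Br53T1 and Br53T2. One luminal mouse, vBrL, stood far above the rest and the other values overlapped. The log2 fold change was -1.86 ± 0.75 (SE; edgeR adjusted p = 0.302, 4 tumors and 5 luminal mice), and without vBrL it was -0.74.

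Polq was the only gene of the 49 whose groups did not overlap, against 7.52% of all genes. It was at 11.5, 8.39, 11.1, 6.31 and 7.70 CPM in vBrL, pBrL-1, pBrL-2, vBr53L and pBr53L, and at 1.90, 3.87, 0.802 and 4.58 CPM in BrT1, BrT2, Br53T1 and Br53T2. Every tumor lay below every Brca1-deficient luminal mouse. The log2 fold change was -1.79 ± 0.86 (edgeR adjusted p = 0.388).

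Trp53bp1, which shields ends from resection, was at 84.4, 73.5, 24.8, 23.6 and 47.1 CPM in the same 5 luminal mice and at 69, 150, 100.5 and 89.8 CPM in the tumors. A total of 3 tumors lay above all 5 luminal mice and BrT1 did not. The log2 fold change was 0.91 ± 0.46 (edgeR adjusted p = 0.425), but -0.51 in cycling cells alone, a choice made after the data were seen.

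Fancd2 was at 25.9, 2.68, 39.5, 1.07 and 16.8 CPM in vBrL, pBrL-1, pBrL-2, vBr53L and pBr53L and at 3.71, 0.0801, 0.0182 and 4.32 CPM in the 4 tumors in the same order as above. It had the largest log2 fold change of the Fanconi genes, -3.24 ± 1.56 (edgeR adjusted p = 0.391), and its groups overlapped. Rad51b, which acts in homologous recombination, was at 23.7, 11.3, 14.6, 0.176 and 8.55 CPM in the luminal mice and 9.99, 0.301, 0.200 and 0.0771 CPM in the tumors. Only BrT1 and vBr53L broke an otherwise full separation, and the log2 fold change was -2.32 ± 1.59 (edgeR adjusted p = 0.562).

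The largest folds of the remaining roles were those of Blm, Xrcc4 and Bard1. Blm was at 1.34, 5.44, 12.7, 11.3 and 19.2 CPM in the luminal mice and 5.33, 6.99, 2.82 and 6.62 CPM in the tumors, with a log2 fold change of -1.01 ± 0.88 (edgeR adjusted p = 0.665). Xrcc4, the scaffold of the ligase of classical end joining, was at 18.1, 19.2, 15.4, 14.8 and 21.6 CPM against 10.6, 5.85, 12.5 and 15.6 CPM, with a log2 fold change of -0.84 ± 0.54 (edgeR adjusted p = 0.534). For Bard1 it was 0.72 ± 0.82 (edgeR adjusted p = 0.754), and it was -0.094 in cells outside the cycling class. Blm and Bard1 overlapped widely between the groups, while for Xrcc4 a total of 3 tumors lay below every luminal mouse and Br53T2 did not.

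The most abundant gene of each role gave no clearer separation. Xrcc6 was at 96.6, 67.97, 94.7, 53.4 and 72.3 CPM in the Brca1-deficient luminal mice, 59.2 and 56 CPM in v53L and p53L, and 54.8, 68.6, 46.3 and 85.1 CPM in the tumors. Parp2 was at 74.4, 102.9, 107.7, 106.2 and 42.3 CPM, 195 and 63.2 CPM, and 71.8, 122, 79.5 and 58.1 CPM in the same order. The highest Parp2 level was in v53L, the mouse without cycling cells. Within mice, however, Parp2 was higher in cycling cells in 9 of 10, with means of 123 and 59.7 CPM. Rbbp8, which starts resection with BRCA1, was at 54.1, 34.2, 72.1, 30.1 and 57.5 CPM, 50.4 and 39.8 CPM, and 90.7, 26.4, 39.1 and 119 CPM.

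Rif1 ran from 34.5 CPM in Br53T1 to 296 CPM in vBrL, with 92.2, 103.4, 176 and 110 CPM in pBrL-1, pBrL-2, vBr53L and pBr53L, 130 and 170 CPM in v53L and p53L, and 100.9, 85.8 and 256 CPM in BrT1, BrT2 and Br53T2. Rad52 was at 31.1, 21.2, 15.1, 36.1 and 47.2 CPM in the Brca1-deficient luminal mice, 26.3 and 22.6 CPM in the wild type mice and 13.6, 45.2, 20.2 and 10.98 CPM in the tumors. Fancc was at 0.563, 23.6, 3.69, 5.44 and 10.5 CPM, 4.09 and 8.01 CPM, and 42.5, 7.95, 38.99 and 7.68 CPM in that order. For none of these 3 genes did tumors separate from luminal mice.

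In chip SC6, which held pBrL-2 and Br53T2, 14 of the 49 genes were higher in the tumor and 35 in the luminal mouse, with a median log2 ratio (CPM + 1) of -0.38, against 0.13 over 12908 genes. In cells outside the cycling class the medians were 0.00 and 0.27. Each side was 1 mouse, so this comparison has no replicate. In the edgeR fit over all tumors and Brca1-deficient luminal mice, cells outside the cycling class gave a median log2 fold change of -0.54 over the 44 genes tested. Over all genes it was 0.01.

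**Figure D5:**
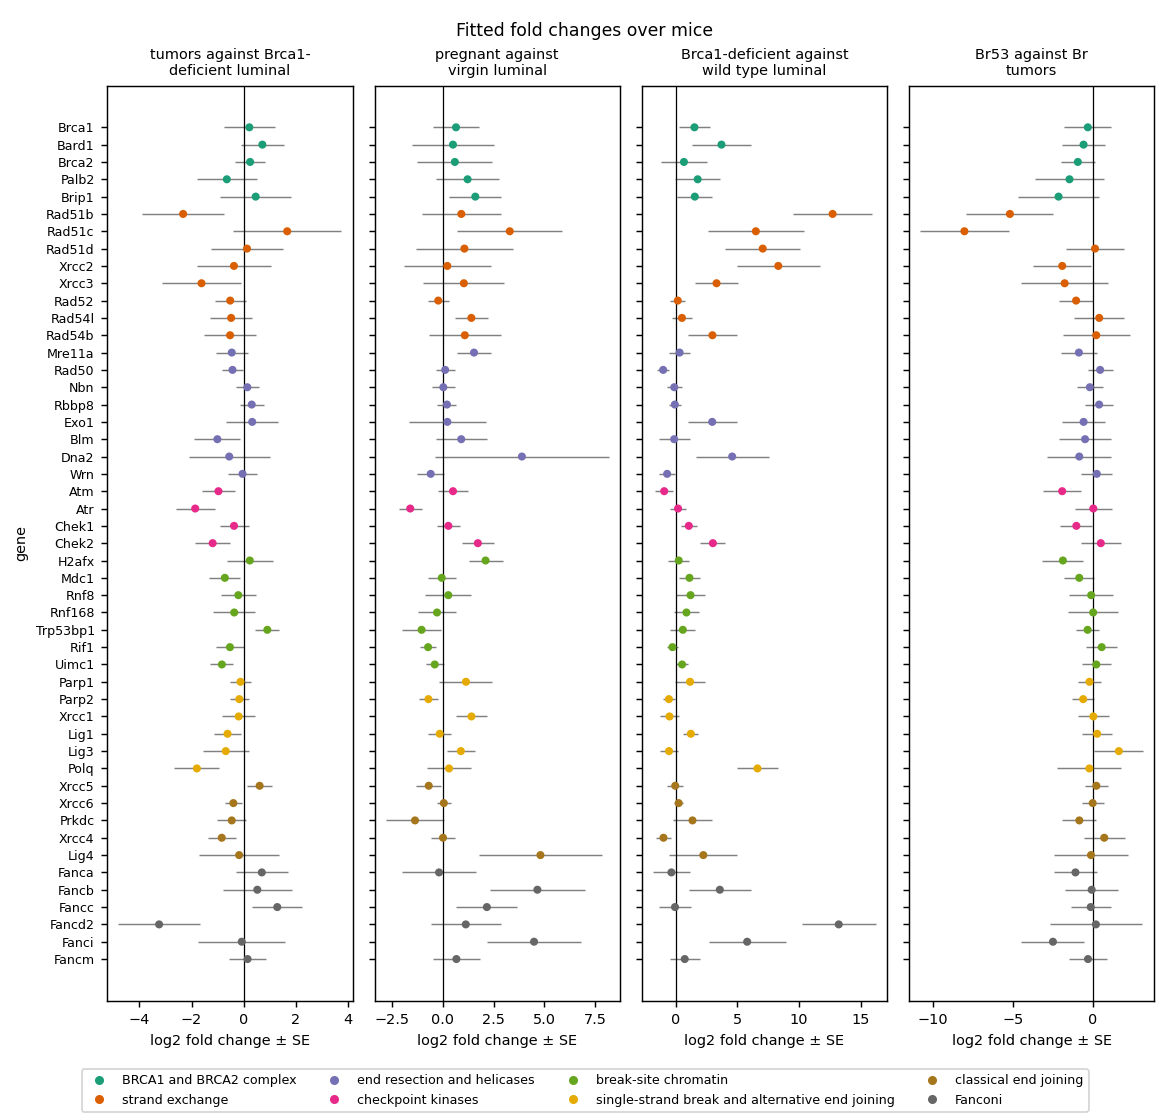
Fitted log2 fold change with its standard error for each of the 49 genes in 4 comparisons over mice, from edgeR on reads summed per mouse; axes differ in range. No gene passed an adjusted p of 0.05 in any of the 4, and the largest values, Fancd2 and Rad51b in the third panel, are fitted against mice with 0 reads.

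Pregnancy was compared with the virgin state in the 7 luminal mice, with genotype as a term. Of the 49 genes 0 were called by edgeR, against 0.0159% of 12615 genes. At an unadjusted p under 0.05 there were 2, against 9.74%, and DESeq2 called 0, against 7.65%. The median log2 fold change was 0.50 over the 49 genes and 0.12 over all genes tested, and all 20 G2/M genes had a fitted value above 0, with a median of 2.37 (1.36 to 5.08 without any 1 mouse). The median of the 49 genes was 0.06 without v53L and without p53L, 0.32 without pBrL-2 and 0.88 without pBrL-1. In cycling cells alone, a choice made after the data were seen, it was -0.07, but this fit also lacks v53L, which has no such cell. In cells outside the cycling class of all 7 mice it was 0.21, with 42 genes tested.

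The genes at an unadjusted p under 0.05 were Atr and H2afx, the latter named after its values were seen. Atr was at 176, 30.0 and 52.2 CPM in vBrL, vBr53L and v53L and at 27.2, 20.1, 23.6 and 25.2 CPM in pBrL-1, pBrL-2, pBr53L and p53L, so each pregnant mouse lay below each virgin mouse. Its log2 fold change was -1.61 ± 0.58 (edgeR adjusted p = 0.469), and -0.65 without vBrL. H2afx was at 11.9, 2.32 and 5.28 CPM in the virgin mice and 15.1, 38.1, 28.5 and 20.3 CPM in the pregnant mice, in that order, with a log2 fold change of 2.10 ± 0.84 (edgeR adjusted p = 0.482). Xrcc1, a scaffold of single-strand break repair, was the other gene without overlap, at 8.24, 6.60 and 17.6 against 46.8, 19.8, 22.6 and 18.3 CPM. These 3 of 49 stand beside 11.9% of all genes.

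On the chips that held a virgin and a pregnant mouse of 1 genotype, 33 of 49 genes were higher in pBr53L than in vBr53L, with a median log2 ratio of 0.63 against 0.00 over all genes, and 32 were higher in p53L than in v53L, with a median of 0.13 against 0.00. In cells outside the cycling class the medians of the 49 genes were 0.44 and 0.00.

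Loss of Brca1 before a tumor was examined by comparing the 5 Brca1-deficient luminal mice with v53L and p53L, with stage as a term. Both wild type mice carried Trp53 fl/+, whereas vBrL, pBrL-1 and pBrL-2 did not, so most of the deficient mice differed from them in Trp53 as well. Of the 49 genes 0 were called by edgeR, and of all 13709 genes 0%. At an unadjusted p under 0.05 there were 6, against 5.97% of all genes, and all 6 were higher in the Brca1-deficient mice, against 3.63%. DESeq2 called these 6 at an adjusted p of 0.05, against 3.78% of all genes. The median log2 fold change was 0.87 over the 49 genes and 0.13 over all genes tested, and 35 of 49 were above 0. G2/M genes had a median of 2.18 and S phase genes of 1.30. These medians rested on the 2 wild type mice: without v53L they were 0.49 for the 49 genes, 0.87 for G2/M and 0.16 for S phase genes, and without p53L they were 1.40, 12.26 and 4.25. The 12.26 is fitted against v53L alone, where the G2/M genes summed to 13.7 CPM, so its size cannot be relied on. With vBr53L and pBr53L alone against v53L and p53L, which share the Trp53 allele, edgeR called 0 of 47 genes tested, 1 had an unadjusted p under 0.05, and the median was 0.82.

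The 6 genes were Fancd2, Polq, Rad51b, Chek2, Xrcc2 and Rad51d, of which the last 3 were named after their values were seen. Fancd2 and Rad51b had 0 reads in both wild type mice. In the 5 deficient mice the mean was 17.2 ± 16.2 CPM (SD, n = 5) for Fancd2 and 11.7 ± 8.58 CPM for Rad51b. No fold is given, since v53L and p53L held only 40 and 36 cells and 1 cell can carry most reads of a gene. Both genes were nonetheless near 1 CPM or below in vBr53L, at 1.07 and 0.176 CPM. The edgeR adjusted p was 0.744 for each.

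Polq was at 0.0496 CPM in v53L and 0.109 CPM in p53L, 7 reads in all, against 6.31 to 11.5 CPM in the 5 deficient mice given above. The arms did not overlap, and the log2 fold change was 6.63 ± 1.68 (edgeR adjusted p = 0.744), 6.13 without v53L and 7.33 without p53L. The size of this fold rests on those 7 reads. In the tumors Polq was at 0.802 to 4.58 CPM, so the luminal mice with the deletion held the highest levels of the 3 kinds of mouse. Neither comparison passed the test for Polq. It was found in 8.88% of cells on average, and the part of cycling cells in its levels was not tested. Chek2 was at 39.9, 66.1, 36.01, 7.60 and 31.7 CPM in the deficient mice and at 0.843 and 9.34 CPM in v53L and p53L, with overlap at vBr53L (log2 fold change 3.01 ± 1.02, edgeR adjusted p = 0.778).

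Xrcc2 was at 22.9, 5.36, 1.58, 0.0147 and 1.90 CPM against 0 and 0.0218 CPM, with 1 read in the wild type mice in all. Rad51d was at 8.51, 4.28, 5.33, 0 and 9.44 CPM against 0.0248 and 0.0436 CPM, with 3 reads in the wild type mice. For both genes vBr53L lay with the wild type mice (edgeR adjusted p = 0.778 for each), and with so few reads no fold is given.

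Of the 49 genes 9 did not overlap between the arms, against 11.3% of all genes. Rad54b, Fancd2, Lig1, Palb2, Chek1, Rad51b, Polq and Mdc1 were higher in each deficient mouse and Xrcc4 lower. The wild type arm held the mouse without cycling cells, and v53L had 0 reads of 10 of the 49 genes: Bard1, Brca2, Rad51b, Rad51c, Xrcc2, Rad54b, Lig4, Fancb, Fancd2 and Fanci. In cells outside the cycling class 46 genes were tested, 0 were called, 0 had an unadjusted p under 0.05, and the median was 0.30. Without p53L, which leaves v53L as the only wild type mouse and assumes that it varies like the others, edgeR called 2 of 49, Brca2 and Parp1, against 0.822% of all genes. Parp1 was at 39.8, 73.1, 63.9, 110.7 and 34.7 CPM in the deficient mice, 1.24 CPM in v53L, 61.5 CPM in p53L and 94.6, 44.5, 76.9 and 47.8 CPM in the tumors, so only v53L was low. Both v53L and p53L came from 1 chip, SC9, which held no Brca1-deficient mouse, so chip and Brca1 genotype cannot be told apart.

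The last comparison set Br53T1 and Br53T2 against BrT1 and BrT2, which asks what 1 floxed Trp53 allele adds. Trp53 itself was at 67.2 and 140 CPM in Br53T1 and Br53T2 and at 5.05 and 49.8 CPM in BrT1 and BrT2. As for Brca1, reads of the whole gene are counted. The level therefore does not measure intact transcript or show what the allele did to Trp53. Of the 49 genes 0 were called by edgeR, and 0% of all 13477 genes. At an unadjusted p under 0.05 there was 1, against 3.98%, and DESeq2 called 1, against 2.34%. It was Rad51c in both, named after its values were seen, at 16.7 and 1.12 CPM in the Br tumors and at 0.0547 and 0.0110 CPM in Br53T1 and Br53T2 (edgeR adjusted p = 1.00), levels of so few reads that no fold is given. Its groups did not overlap, as for 9 of the 49 genes and 31.9% of all genes. The median log2 fold change was -0.21 over the 49 genes and 0.00 over all, and the former was 0.31 without BrT1, -0.45 without BrT2 and -0.70 without Br53T2.

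A list of 34 other repair genes of the same pathways (33 or 34 tested) gave 0 calls by edgeR in each of the 4 comparisons over all mice. DESeq2 called Rev3l (log2 fold change -2.44) and Slx4 (5.97) in pregnancy, against 7.65% of all genes. It called Mcm8 (5.14) and Rmi1 (4.58) in Brca1 deficiency, against 3.78%. Without a filter on low counts, edgeR called Rev3l in pregnancy, among 193 lower and 173 higher of 18426 genes. All 4 were named after their values were seen. The median log2 fold changes of the list were -0.29, 0.46, 0.52 and -0.41 in tumors, pregnancy, Brca1 deficiency and Br53 tumors. Leaving out 1 mouse moved these medians to between -0.47 and -0.15, 0.11 and 0.95, 0.33 and 1.72, and -0.92 and 0.17.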

How the data were processed

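Libraries of single cells were made on C1 chips with the SMARTer and Nextera XT kits, and capture sites were inspected for doublets under a microscope. The authors trimmed reads and aligned them to mm10, and the submitters' processing notes name Trim Galore 0.4.1, STAR 2.5.3a and Subread 1.5.3. The deposited values are raw read counts per gene, without molecular identifiers, so PCR copies are counted. Reads were summed over the cells of a mouse and tested with edgeR 4.0.16 (R 4.3.3; filterByExpr, TMM, quasi-likelihood test, two-sided, adjusted p under 0.05), and checked on simulated data. DESeq2 1.42.0 and limma 3.58.1 were alternatives. CPM divides by all gene reads of the mouse, without TMM. Cells were thinned with a fixed seed. Exon lengths came from GENCODE vM21. The genes and lists were chosen with earlier results of these data known. Values by mouse are given for Brca1, Bard1, Brca2 and Palb2, for any gene called, and in each role for the gene with the highest mean CPM and that with the largest fold change in tumors; other genes were named after their values were seen. P-values rest on 2 to 5 mice per arm.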

Additional observations from a re-analysis of the deposited data

Results flagged for a closer look

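The summed CPM of each of the 8 roles and of all 49 genes was examined for a mouse far from the others, in the 7 luminal mice and in the 4 tumors, 18 groups of values in all. Chance flags about 1 in 20 such groups. One stood apart: the checkpoint kinases (Atm, Atr, Chek1 and Chek2) summed to 278 CPM in vBrL, against 80.1 to 157 CPM in the other 6 luminal mice, a gap of 0.612 of the whole range where 0.568 is the limit for 7 samples. Atr gave 176 CPM of that sum. The cause was not tested.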

How the results depend on the processing

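The count of genes called, 0 of 49 in each comparison, was unchanged under 66 of 69 alternatives. DESeq2 called 6 in Brca1-deficient against wild type luminal mice and 1 in Br53 against Br tumors. Leaving out 1 mouse at a time gave 0 to 2 calls in Brca1-deficient against wild type mice, the 2 (Brca2 and Parp1) without p53L, and 0 in the other 3 comparisons. The median log2 fold change of the 49 genes ran over all alternatives from -0.54 to -0.19 in tumors, from -0.07 to 0.88 in pregnancy, from 0.30 to 1.40 in Brca1 deficiency and from -0.70 to 0.31 in Br53 tumors. Of the fold changes given above, 2 changed sign in tumors: Bard1 was -0.094 in cells outside the cycling class, and Trp53bp1 was -0.514 in cycling cells alone, a setting added after the data were seen. The cause was not tested. With the cycling class cut at 3 or 8 of the 20 G2/M genes, 12 (10 mice) and 9 (9 mice) of the 49 genes were higher in cycling cells in all mice, against 8. Thinning to 50000 reads gave 17.1% in place of 20.0% of cells with a read. No paired analysis was possible by replicate number, because the labels give none that mice of different groups share. With chip as a block, in the 4 mice of chips SC7 and SC9, edgeR called 0 of 47 genes for pregnancy, with a median log2 fold change of 0.69. One mouse per group in 9 of 10 groups, and reads that often came from 1 cell, limit what these tests can show.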
